A study of Mus musculus with 10 samples.

Results

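The 27 genes described here make, import, store and export cholesterol, and they were taken by symbol from a table of 13932 genes counted in epithelial cells of the mouse ileum. All 27 were listed and all 27 passed the filter on low counts, which kept 12477 genes for testing. By role, 7 act in the mevalonate pathway (Acat2, Hmgcs1, Mvk, Pmvk, Mvd, Idi1, Fdps) and 10 between squalene and cholesterol (Fdft1, Sqle, Lss, Cyp51, Tm7sf2, Msmo1, Nsdhl, Hsd17b7, Sc5d, Dhcr7). Together these are called the 17 synthesis genes. The other members are the regulators Srebf2, Insig1 and Stard4, the uptake genes Npc1l1 and Scarb1, the esterifying enzyme Soat2, the efflux genes Abca1, Abcg5 and Abcg8, and the sterol receptor Nr1h3. The symbol Acat2 denotes here the cytosolic thiolase that joins acetyl units at the start of synthesis, and not Soat2, whose protein has carried the same name.

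Total RNA was sequenced from live CD45-, EpCAM+ cells sorted from the ileum of 10 mice, 1 library per mouse. The 5 WT mice were H2-Ab1 fl/fl; Villin:Cre- and the 5 dIEC mice H2-Ab1 fl/fl; Villin:Cre+ in the sample labels, while the text of the series gives Cre- for both. Each genotype had 3 males (WT 2, 4 and 6; dIEC 1, 3 and 5) and 2 females (WT 8 and 10; dIEC 7 and 9). Both groups carry the floxed H2-Ab1 allele, H2-Ab1 being a subunit of MHC class II, and Villin drives Cre in the intestinal epithelium, so that Cre itself and the deletion cannot be told apart. The targeted gene stood at 62.9 to 368 CPM (counts scaled to the library's total) in WT and at 0.767 to 3.11 CPM in dIEC. Libraries held 9174101 to 13484363 counts. All 8 epithelial markers and all 5 ileal markers looked for were measured, whereas 3 of 12 leukocyte markers were measured and summed to 8.66 to 19.1 CPM.

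Cholesterol is built from acetyl units through mevalonate, isoprenoid units, squalene and lanosterol. When sterols run low in the endoplasmic reticulum, SREBP2, the product of Srebf2, is cleaved and switches on the synthesis enzymes, while INSIG proteins hold it back when sterols are plentiful. Enterocytes of the small intestine also take up cholesterol from the gut lumen through NPC1L1, esterify it with SOAT2 for chylomicrons, and pump sterols back to the lumen through the ABCG5/ABCG8 pair or to the blood side through ABCA1. The liver X receptors, one of them encoded by Nr1h3, sense oxidised sterols and switch on the efflux genes.

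Levels of different genes are set side by side per exon length, as CPM per kilobase of the union of a gene's exons in GENCODE M21 on GRCm38. The genes with values in every library lie on several chromosomes, among them Hmgcs1 (chr13:119690379-119708260, plus strand), Sqle (chr15:59315077-59331192, plus), Npc1l1 (chr11:6211013-6230143, minus), Soat2 (chr15:102150526-102163469, plus) and Abca1 (chr4:53030787-53159895, minus), all protein coding. In WT libraries the import, storage and luminal export genes stood highest. Npc1l1 was at 313 ± 143 CPM per kb (mean ± SD, n = 5), Abcg5 at 163 ± 50.5, Soat2 at 157 ± 33.5 and Abcg8 at 120.1 ± 46.6. Neighbours in this order differed by less than the sum of their SDs. Next came Hmgcs1, at 49.1 ± 14.5 CPM per kb, Stard4 at 47.1 ± 7.20 and Nr1h3 at 35.2 ± 5.41, which overlapped in the same way. The remaining 20 members lay between 0.387 ± 0.246 CPM per kb for Scarb1, the receptor for high-density lipoprotein, and 22.7 ± 4.76 for Sc5d, with Idi1 next lowest at 0.879 ± 0.484. Exon unions include rare transcripts, which lowers the value of a gene such as Lss whose annotated exons are long.

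**Figure D1:**
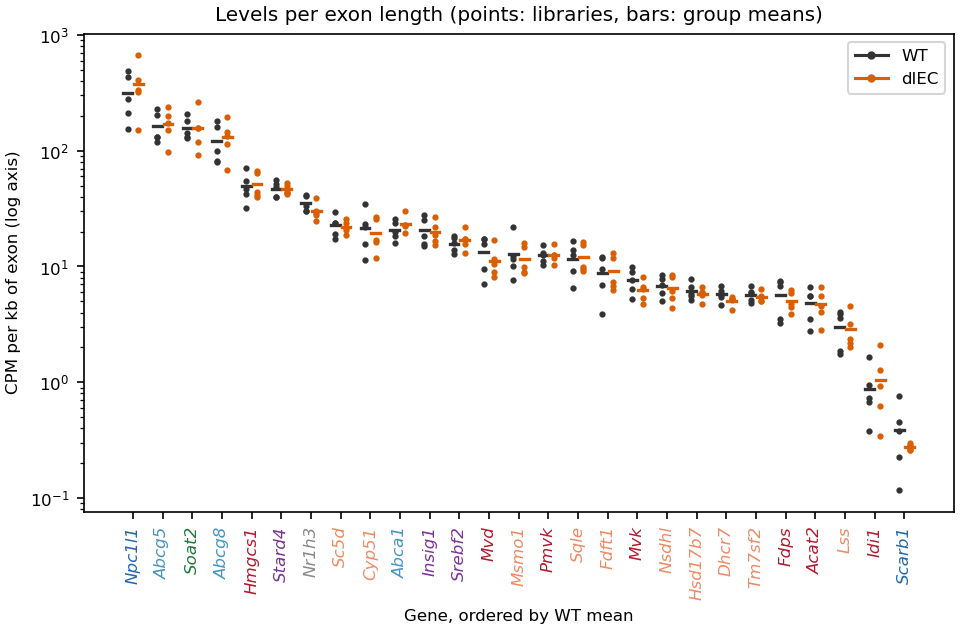
CPM per kilobase of exon (log axis) for the 27 genes, ordered by WT mean; points are libraries and bars are group means for WT and dIEC (n = 5 each). Npc1l1 stood highest, at 313 ± 143 in WT, and Scarb1 lowest, at 0.387 ± 0.246.

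Promoters of the synthesis genes are shown because known SREBP2 targets often pair a sterol element with a CCAAT box, which binds NF-Y. RefSeq start sites on GRCm38.p6 gave windows of 250 bases before to 50 after the start for 21 of the 27 members, 14 of them synthesis genes. The 250 bases before the start are printed below 5′ to 3′ on the gene's strand, for Hmgcs1 (chr13:119690101-119690350, plus strand), Mvd (chr8:122443423-122443672, minus strand) and, beside them, the uptake gene Npc1l1 (chr11:6230246-6230495, minus strand). Capitals mark CCAAT in either orientation (CCAAT or ATTGG) and, in Hmgcs1, the sterol element TCACCCCAC.
Hmgcs1: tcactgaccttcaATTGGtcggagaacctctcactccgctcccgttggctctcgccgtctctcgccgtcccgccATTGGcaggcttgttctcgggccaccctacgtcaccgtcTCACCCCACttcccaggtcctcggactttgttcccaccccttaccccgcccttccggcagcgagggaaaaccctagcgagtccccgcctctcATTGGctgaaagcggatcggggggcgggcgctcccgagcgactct
Mvd: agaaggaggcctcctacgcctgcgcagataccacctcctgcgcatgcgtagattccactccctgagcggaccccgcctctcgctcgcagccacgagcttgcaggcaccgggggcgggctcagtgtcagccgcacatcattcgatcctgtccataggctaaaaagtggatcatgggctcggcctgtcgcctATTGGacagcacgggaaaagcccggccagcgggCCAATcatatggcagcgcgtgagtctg
Npc1l1: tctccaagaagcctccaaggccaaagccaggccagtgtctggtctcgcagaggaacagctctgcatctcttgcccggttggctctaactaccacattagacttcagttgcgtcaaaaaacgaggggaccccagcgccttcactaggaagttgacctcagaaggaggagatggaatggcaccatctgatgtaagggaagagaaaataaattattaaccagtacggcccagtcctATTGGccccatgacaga

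CCAAT was present in 13 of the 17 windows of synthesis genes (76.5%; some genes have several start sites), against 38.0% of the 11526 windows of tested genes and 37.4% of all 32851 windows. The sterol element, searched as TCACNCCAC on both strands, matched 1 synthesis window, that of Hmgcs1 at 137 bases before the start, against 1.18% of the windows of tested genes. CACGTG, an E-box also read by SREBP, matched 3 of the 17 windows (17.6%), against 9.91%. The 9 windows of the other members held CCAAT in 5 (55.6%) and CACGTG in 2 (22.2%), so both matches also occurred outside the synthesis genes. Those with CCAAT include the windows of Insig1 and Srebf2, and the windows of Abcg5 and Abcg8 share a CCAAT site. Counted by gene, CCAAT was present in 13 of 14 synthesis genes (92.9%) and 5 of 7 other members (71.4%), against 43.4% of tested genes. These are matches of letters in a fixed window, described without a test.

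Abcg5 and Abcg8 lie head to head on chromosome 17, and 109 bases lie between their RefSeq start sites. The stretch between them (chr17:84683012-84683120, GRCm38.p6, plus strand, which reads toward Abcg8) is shown because both genes start from it. No capitals occur in it, since none of the motifs searched matched within it. Outside it, CCAAT matched at 114 and 175 bases before the Abcg8 start, the nearer of these at the first bases of Abcg5.
Abcg5-Abcg8: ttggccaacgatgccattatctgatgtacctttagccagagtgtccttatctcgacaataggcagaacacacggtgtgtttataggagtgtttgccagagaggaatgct

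The first comparison asked whether sterol genes differ when epithelial cells lack MHC class II. None of the 27 genes passed the test in dIEC against WT, in edgeR's quasi-likelihood test with sex in the model and Benjamini-Hochberg adjustment over all tested genes (adjusted p under 0.05). Over all genes 2 of 12477 passed, 0.016%. The lowest adjusted p among the members was 0.9999, 0 members had an unadjusted p under 0.05, and DESeq2 and limma voom likewise called 0 members. The estimates of limma voom with sample weights differed, with the sign changed for 7 members. Its difference for Abca1 was 0.35 (adjusted p = 0.196), against 0.18 in edgeR. Over all genes 355 had an unadjusted p under 0.05, where 623.85 are expected by chance. The ranges of the groups overlapped for all 27 members (0.313% of tested genes did not overlap, 0.176% with dIEC higher and 0.136% with dIEC lower). For 24 of 27 members the 95% interval of the difference lay within 1 log2 unit either way, and for Idi1, Npc1l1 and Scarb1 it reached further. In simulated data the same test recovered 1 of 61 differences of 1.5-fold and 26 of 71 of 2-fold, so differences of these sizes could be missed. Each library is a separate mouse, and p-values measure the spread between these mice.

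**Figure D2:**
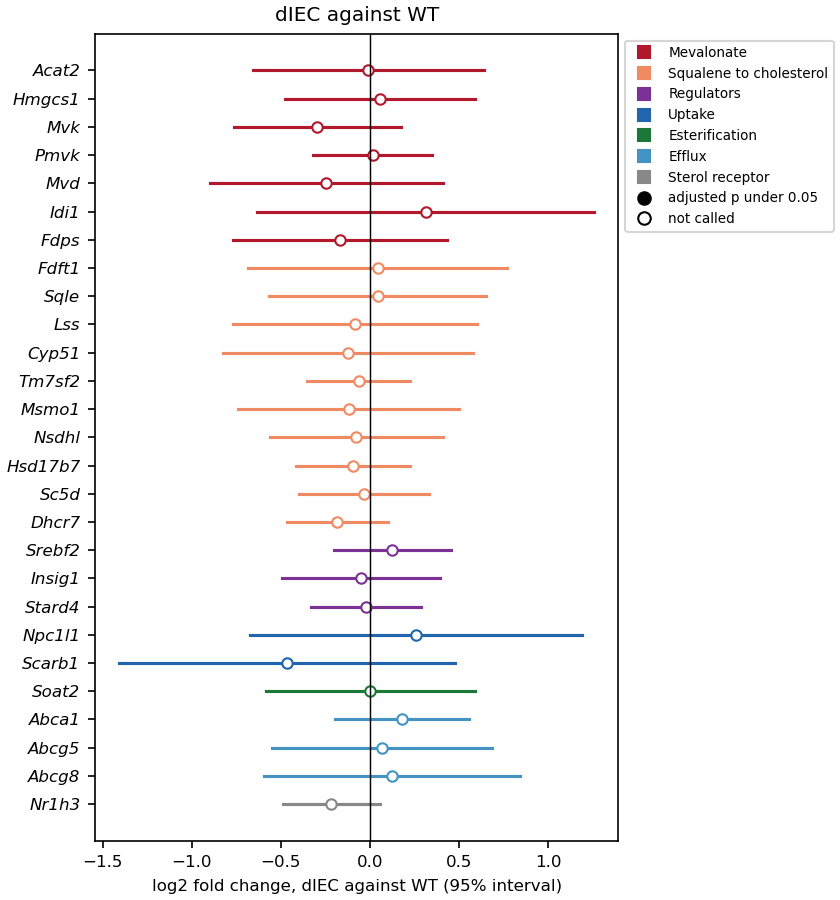
log2 fold change of dIEC against WT for the 27 genes, with 95% intervals from edgeR's quasi-likelihood fit (5 mice per genotype), coloured by role. Open circles are genes that did not pass the test, which is all 27, and every interval spans 0.

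CPM values below are listed in the order WT 2, 4, 6, 8 and 10, then dIEC 1, 3, 5, 7 and 9. Hmgcs1, which condenses acetyl units into HMG-CoA, was at 253, 194, 213, 324 and 146 CPM in WT and at 304, 203, 183, 189 and 295 CPM in dIEC. The highest libraries were WT 8, dIEC 1 and dIEC 9 and the lowest was WT 10, and the groups overlapped over most of their range. The difference was 0.057 (log2, SE 0.24, 95% interval -0.48 to 0.59). Mvk, mevalonate kinase, was at 20.5, 17.2, 24.0, 26.7 and 14.0 CPM in WT and 17.2, 17.6, 12.7, 14.3 and 21.8 CPM in dIEC. Its difference of -0.30 (SE 0.21, 95% interval -0.76 to 0.17) had the third smallest p among the members, and WT 10 was lower than all dIEC libraries but dIEC 5. Mvd, which makes isopentenyl diphosphate, was at 31.9, 17.7, 29.1, 32.0 and 13 CPM in WT and 19.4, 21.7, 16.6, 15.2 and 31.8 CPM in dIEC, a difference of -0.24 (SE 0.29). In WT, 3 libraries (WT 2, 6 and 8) lay above WT 4 and 10, and dIEC 9 was level with the former.

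The other mevalonate genes had like means in both genotypes. Acat2 was at 12.2 ± 4.09 CPM in WT and 12.0 ± 3.77 in dIEC (mean ± SD, n = 5 each), and Pmvk, phosphomevalonate kinase, at 21.3 ± 3.37 and 21.6 ± 3.32. Fdps, which makes farnesyl diphosphate, was at 23.9 ± 8.89 CPM in WT and 21.2 ± 4.28 in dIEC. Idi1, the isomerase of isopentenyl diphosphate, was at 3.08 ± 1.70 CPM and 3.67 ± 2.36 CPM, and its highest library (dIEC 9) exceeded its lowest (dIEC 5) by 6.12 times.

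Among the 10 genes from squalene to cholesterol, Sqle, the epoxidase that is a slow step of the pathway, was at 76.9, 50.3, 69.9, 91.6 and 36.0 CPM in WT and 90.7, 53.0, 50.8, 54.8 and 85.6 CPM in dIEC. WT 8, dIEC 1 and dIEC 9 were highest and WT 10 was lowest, as for Hmgcs1. The difference was 0.043 (SE 0.27, 95% interval -0.56 to 0.65). Dhcr7, which makes cholesterol from 7-dehydrocholesterol, was at 35.7, 27.2, 33.1, 39.4 and 31.5 CPM in WT and 30.8, 31.5, 24.5, 29.9 and 30.4 CPM in dIEC. Its difference of -0.18 (SE 0.13) had the second smallest p among the members, dIEC 5 stood below all other libraries, and WT 4 was below the other 4 dIEC libraries. Sc5d, lathosterol oxidase, was at 92.2, 117, 84.7, 144 and 114 CPM in WT and 125, 101, 115, 104 and 90.8 CPM in dIEC, with WT 8 highest and WT 6 lowest. Tm7sf2, a sterol reductase, kept the narrowest range of all members, 26.3, 25.9, 21.4, 29.6 and 22.7 CPM in WT and 28.0, 23.9, 24.3, 22.2 and 22.3 CPM in dIEC.

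The remaining genes of this branch were close in both genotypes as well. Fdft1, squalene synthase, was at 37.3 ± 14.5 CPM in WT and 38.4 ± 13.3 in dIEC. Lss, which closes the rings to lanosterol, was at 32.5 ± 12.1 and 30.9 ± 11.4 CPM, and Cyp51, the lanosterol demethylase, at 94.2 ± 38.6 and 86.4 ± 29.0 CPM. Msmo1 and Nsdhl act together in removing the methyl groups at carbon C-4. Msmo1 was at 78.2 ± 33.5 CPM in WT and 71.5 ± 20.4 in dIEC, Nsdhl at 19.5 ± 3.90 and 18.5 ± 5.02, and Hsd17b7, the ketoreductase of the same complex, at 31.6 ± 5.36 and 29.6 ± 3.58. Of the 17 synthesis genes 5 had a positive and 12 a negative fitted difference, with a median of -0.077 against 0.013 over all tested genes. The median was 0.086 without WT 8 and 0.017 without dIEC 7, so its sign rested on single libraries.

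Srebf2 was at 130.4, 115, 126, 101 and 92.3 CPM in WT and 157, 125, 94.2, 123 and 113 CPM in dIEC, highest in dIEC 1 and lowest in WT 10. The difference was 0.13 (SE 0.15, 95% interval -0.20 to 0.45). Insig1, itself an SREBP target, was at 78.5, 48.4, 46.8, 86.9 and 56.7 CPM in WT and 67.9, 47.2, 51.6, 57.5 and 82.3 CPM in dIEC. The highest libraries of each genotype, WT 8 and dIEC 9, were both female, and the groups overlapped throughout. Stard4, a carrier of sterols between membranes, was at 263 ± 40.2 CPM in WT and 258 ± 24.1 in dIEC.

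Npc1l1 varied more than most members, at 948, 2178, 1242, 687 and 1929.9 CPM in WT and 1500.5, 1422, 1804, 2966 and 679 CPM in dIEC. The lowest library was dIEC 9, followed by WT 8, and the highest was dIEC 7, so that both ends of the range were female dIEC mice. The difference of 0.26 (SE 0.42, 95% interval -0.67 to 1.19) was well within this spread. Scarb1 was at 1.91, 3.25, 3.83, 1.001 and 6.46 CPM in WT and 2.20, 2.44, 2.56, 2.41 and 2.21 CPM in dIEC. All 5 dIEC values lay inside the WT range, and the difference of -0.47 (SE 0.42, 95% interval -1.41 to 0.48) rested on few counts. Soat2 was at 285, 396, 293, 313 and 454 CPM in WT and 264, 345, 346, 587 and 204 CPM in dIEC, where dIEC 7 was highest and dIEC 9 lowest of all 10 libraries.

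The efflux gene Abca1 was at 191, 265, 166, 206 and 246 CPM in WT and 235, 231, 235, 313 and 202 CPM in dIEC, highest in dIEC 7. Abcg5 was at 321, 626, 358, 355 and 551 CPM in WT and 469.8, 406, 537, 642 and 262 CPM in dIEC. Abcg8, its partner in one transporter, was at 307, 677, 376, 296 and 595 CPM in WT and 500.4, 429.9, 539, 729 and 255 CPM in dIEC. Both partners were highest in dIEC 7 and WT 4 and lowest in dIEC 9, and the ratio of Abcg8 to Abcg5 CPM stayed between 0.836 and 1.13 in the 10 libraries. The 2 genes share 82 exon bases on opposite strands, so part of their counts is uncertain. All 3 efflux genes had a positive fitted difference (median 0.12), which became -0.15 without dIEC 7.

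Nr1h3 was at 76.4, 83.4, 76.4, 103 and 103 CPM in WT and 61.8, 76.2, 73.3, 97.2 and 69.7 CPM in dIEC. It had the smallest p among the members, with a difference of -0.22 (SE 0.12, 95% interval -0.49 to 0.054). The female WT libraries 8 and 10 and the female dIEC 7 were highest, and 4 of the 5 dIEC libraries stood below every WT value, while dIEC 7 lay within the WT range.

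An index of synthesis against efflux was formed per library as the mean log2 CPM of the 17 synthesis genes minus that of the 3 efflux genes. It was -3.39 ± 0.76 in WT and -3.57 ± 0.70 in dIEC (mean ± SD, n = 5 each), a difference of -0.17, smaller than either SD. Left-out libraries moved this difference between -0.43 and 0.031, with a positive sign without WT 8 (0.018) or without dIEC 7 (0.031).

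No member passed the same test of female against male mice (0 of 27, against 0.0401% of all genes, 0.00801% higher and 0.0321% lower). Nr1h3 was the 1 member with an unadjusted p under 0.05, higher in females by 0.32 (log2, SE 0.12, adjusted p = 0.9996). With the proliferation score as a further covariate, an alternative added after the data were seen, 3 members passed (Idi1 higher, Npc1l1 and Abcg8 lower in females), as did 4.14% of all genes (1.39% higher, 2.75% lower), and 0 to 3 passed when 1 library was left out. In the test of an interaction between genotype and sex no member passed either (0 of 27, against 0.00801%), where each genotype has 2 females. The smallest p belonged to Sc5d, with an interaction of -0.62 (SE 0.29, 95% interval -1.27 to 0.024). Its female WT values of 144 and 114 CPM lay above the female dIEC values of 104 and 90.8 CPM, while in males all 3 dIEC values exceeded WT 2 and WT 6 and 1 of 3 exceeded WT 4. Next in order of p were Tm7sf2 (-0.29, SE 0.27), Srebf2 (0.27, SE 0.31) and Mvd (0.52, SE 0.61).

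Libraries of both genotypes differed widely from each other, and the synthesis and efflux genes varied in opposite directions. In the 136 pairs of synthesis genes the median Pearson r of log2 CPM over the 10 libraries was 0.72, and 128 pairs were positive. In the 51 pairs of a synthesis with an efflux gene the median r was -0.70, and 3 were positive. These coefficients are descriptions without a test, since all pairs share the same 10 libraries, their depth and their scaling. The like values over pairs of all tested genes were not computed, so the coefficients do not set these genes apart.

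The libraries also differed in a proliferation score, the mean log2 CPM of 32 cell cycle genes. The score ran from 2.93 in dIEC 7, 3.23 in WT 10 and 3.60 in WT 4 to 5.08 in WT 2 and WT 6 and 5.57 in dIEC 9, with means of 4.30 ± 0.85 in WT and 4.45 ± 0.96 in dIEC. The mean log2 CPM of 17 mature enterocyte genes moved the other way, from 10.6 in dIEC 7, WT 10 and WT 4 to 8.73 in dIEC 9. Markers of Paneth cells, secretory cells of the crypt base, also moved with the score: their mean log2 CPM was 4.81 in dIEC 7 and 4.94 in WT 10, against 7.48 in WT 2 and 7.02 in dIEC 9. That of goblet cell markers was 8.18 in dIEC 7 and 7.46 in dIEC 9, between 6.62 in WT 10 and 9.29 in WT 4. TMM scaling factors moved with the score, from 0.812 in dIEC 7 to 1.21 in dIEC 9. In bulk libraries fewer cells of a type and less RNA per cell cannot be told apart.

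**Figure D3:**
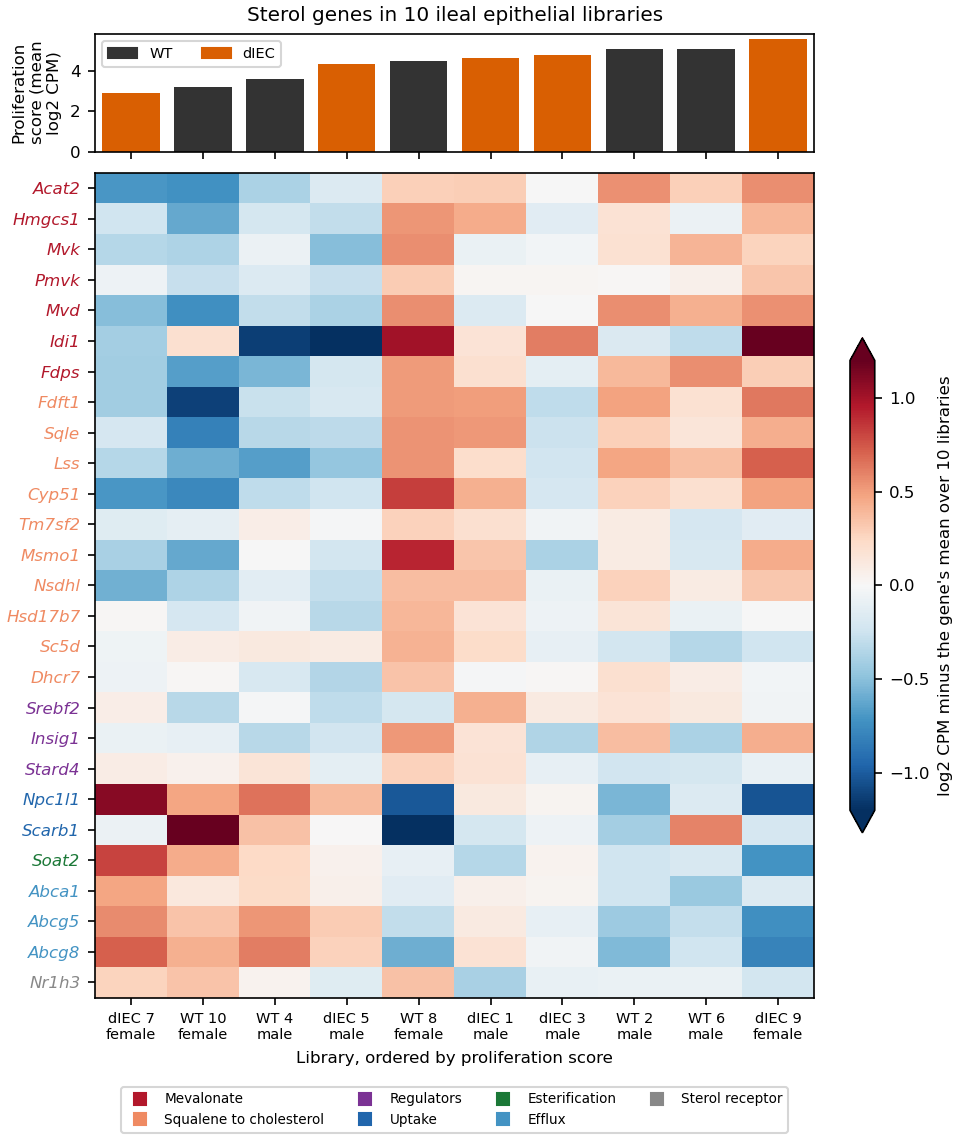
log2 CPM of each gene minus its mean over the 10 libraries (colour), with libraries ordered by the proliferation score shown as bars above (mean log2 CPM of 32 genes). From dIEC 7 (score 2.93) to dIEC 9 (score 5.57) most synthesis genes go from blue (low) to red (high), while Npc1l1, Soat2, Abcg5 and Abcg8 go from red to blue.

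With sex and genotype in the model, 18 of the 27 members changed with the score: 13 rose and 5 fell. Over all tested genes 54.5% passed this test, 26.4% rising and 28.1% falling, so that passing it does not set a gene apart. Of the 17 synthesis genes 12 rose and none fell, with a median slope of 0.34 log2 per unit of score against -0.0090 over all genes. All 3 efflux genes fell, as did Npc1l1 and Soat2. The score comes from the same libraries and shares their depth, and the question was chosen with earlier results of these data known.

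All 7 mevalonate genes rose. Mvd rose by 0.54 log2 per unit (SE 0.083, adjusted p = 1.39e-04), from 15.2 CPM in dIEC 7 to 31.8 in dIEC 9. Acat2 rose by 0.54 (SE 0.084, adjusted p = 1.60e-04) and Fdps by 0.46 (SE 0.095, adjusted p = 0.00119). The others rose by 0.20 (Pmvk) to 0.62 (Idi1), with Mvk at 0.33 and Hmgcs1 at 0.32 (adjusted p = 0.0257). Acat2 was lowest in WT 10 (6.99 CPM) and highest in dIEC 9 (16.99 CPM).

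From squalene on, 5 of 10 genes rose. Lss rose by 0.56 (SE 0.091, adjusted p = 2.10e-04), Cyp51 by 0.53, Fdft1 by 0.52, Sqle by 0.39 (adjusted p = 0.0297) and Nsdhl by 0.34. Fdft1 and Cyp51 share exon bases on the opposite strand with Ctsb (774) and Akap9 (166), and whether the counting used strand is not known. Msmo1 had a slope of 0.34 (SE 0.16, adjusted p = 0.110) that did not pass. It did pass with scaling by library size only, DESeq2, limma voom, or the mature enterocyte score in place of the proliferation score. Small slopes that did not pass were those of Dhcr7 (0.11), Hsd17b7 (0.088), Tm7sf2 (0.015) and Sc5d (-0.097). Tm7sf2 shares 532 exon bases with Vps51 on the same strand, so part of its counts is uncertain. Exons of Hmgcs1, Idi1, Fdps, Lss and Nr1h3 overlap other annotated genes that have no row in the analysed table.

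Among the regulators Insig1 rose by 0.24 (SE 0.095, adjusted p = 0.0458), a call lost in 7 of 10 fits that left out 1 library, with slopes of 0.19 to 0.31 in those fits. Srebf2, whose product drives the synthesis genes, had a slope of 0.035 (SE 0.079), and Stard4 one of -0.083 (SE 0.069). Neither passed, and the 95% interval of the Srebf2 slope ran from -0.14 to 0.21. The level of Srebf2 RNA says nothing of cleaved SREBP2 protein.

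Uptake, storage and efflux fell together. Npc1l1 fell by 0.80 log2 per unit of score (SE 0.083, adjusted p = 6.73e-06). Abcg8 fell by 0.63 (SE 0.061, adjusted p = 4.53e-06), the smallest p of any member, and Abcg5 by 0.53 (SE 0.057, adjusted p = 8.98e-06). Soat2 fell by 0.48 (SE 0.071, adjusted p = 9.92e-05) and Abca1 by 0.26 (SE 0.055, adjusted p = 0.00121). Npc1l1 and the ABCG pair are enterocyte genes, and 15 of the 17 mature enterocyte markers fell with the score as well; the part of those cells, or of the Paneth cells, in the members' slopes was not tested. Nr1h3 (-0.13, SE 0.057, adjusted p = 0.0643) and Scarb1 (-0.35, SE 0.24, adjusted p = 0.233) did not pass.

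**Figure D4:**
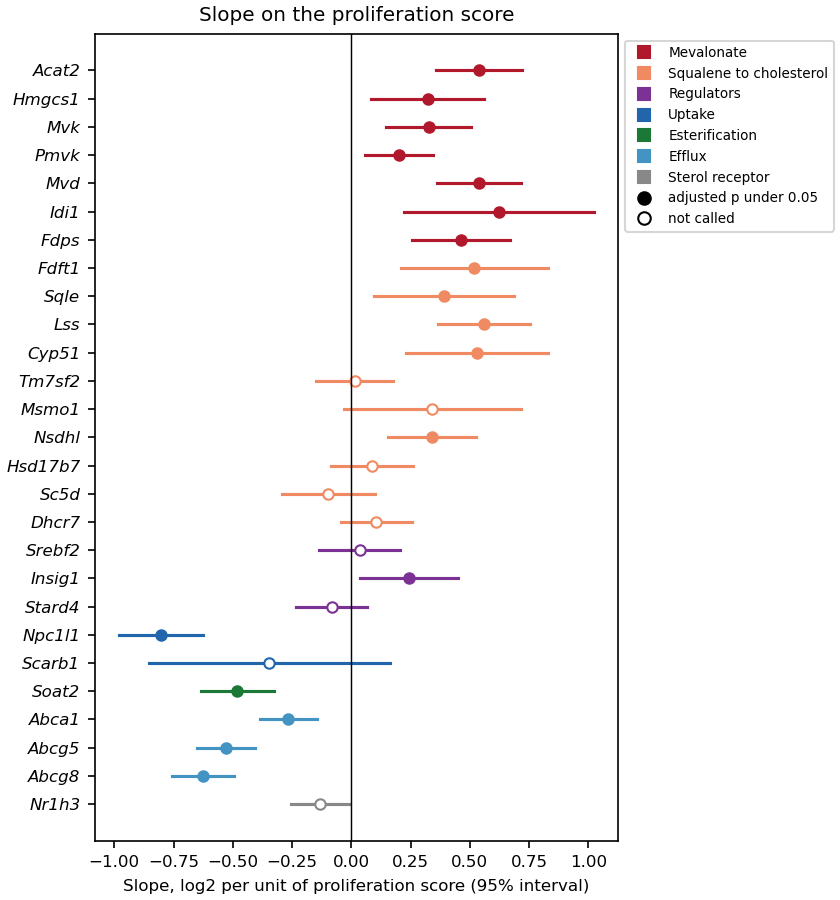
Slope of each gene's log2 level on the proliferation score, with 95% intervals from edgeR's quasi-likelihood fit (10 libraries, sex and genotype in the model), coloured by role. Filled circles passed an adjusted p of 0.05: 13 slopes above 0 and, at the bottom, 5 below 0, from Abca1 (-0.26) to Npc1l1 (-0.80).

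In the 10 fits that left out 1 library, 13 to 18 members passed, with 13 without dIEC 9. Over all genes 4896 to 7007 passed in these fits, with 4896 of 12547 without dIEC 9. The same 11 members passed in all 10 fits: Acat2, Mvk, Mvd, Fdps, Lss and Nsdhl rising, and Npc1l1, Soat2, Abca1, Abcg5 and Abcg8 falling. How many of all genes passed in all 10 was not counted, so this does not set the 11 apart. Without WT 10 and dIEC 7, the 2 libraries farthest from the median score, 8 members passed (background 18.7%, 11.3% rising and 7.36% falling): Acat2, Fdps, Lss and Mvd rose and Abca1, Abcg5, Abcg8 and Npc1l1 fell. The same 8 passed in the 6 males alone, an alternative added after the data were seen, where 18.7% of genes passed (11% rising, 7.7% falling). Calls lost without 1 library were those of Hmgcs1 (WT 10, dIEC 7 or dIEC 9), Sqle (WT 2, WT 4, WT 10 or dIEC 9), Pmvk (WT 10 or dIEC 9), Cyp51 and Idi1 (dIEC 7) and Fdft1 (dIEC 9). Their slopes in those fits stayed positive, with adjusted p-values of 0.0501 to 0.124. Cyp51 kept a slope of 0.53 without dIEC 7 (adjusted p = 0.0501), and Fdft1 had 0.59 without dIEC 9 (adjusted p = 0.0554). The slope of Hmgcs1 ran from 0.24 to 0.42 in the fits that lost its call, that of Sqle from 0.29 to 0.53 and that of Pmvk from 0.15 to 0.24, while Idi1 had 0.49.

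Scaling by library size alone shifted the median slope of all genes from -0.0090 to 0.17, and turned the split of all genes from 3297 rising and 3509 falling to 5794 and 1332. Under it 18 members rose and 4 fell, and Dhcr7, Hsd17b7, Msmo1, Srebf2 and Tm7sf2 gained a call. Npc1l1, Soat2, Abcg5 and Abcg8 still fell, whereas Abca1 lost its call (-0.042, adjusted p = 0.470), and the slopes of Nr1h3, Sc5d and Stard4 changed sign. RLE size factors and DESeq2 changed the sign of no member's slope.

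WT 8 stood apart in the synthesis genes. It had the highest CPM of all libraries in 10 of the 17 (Hmgcs1, Mvk, Mvd, Sqle, Cyp51, Tm7sf2, Msmo1, Hsd17b7, Sc5d and Dhcr7) at a middling score of 4.52. Its mean log2 CPM of the synthesis genes was 0.48 above the straight line through all 10 libraries, where the other 9 lay between -0.31 and 0.15. Its Npc1l1, 687 CPM, was next to the lowest of all.

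**Figure D5:**
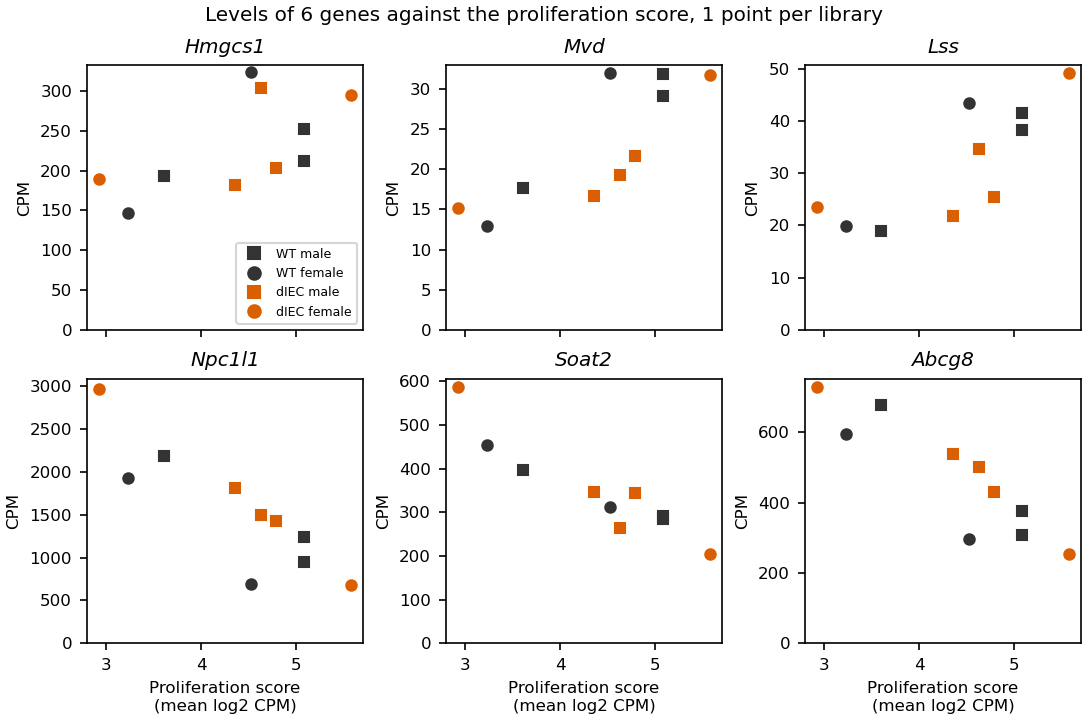
CPM of Hmgcs1, Mvd, Lss, Npc1l1, Soat2 and Abcg8 against the proliferation score (mean log2 CPM of 32 genes), 1 point per library, squares for males and circles for females, WT dark and dIEC orange. The lower genes are highest at the far left, in dIEC 7. Of the upper genes Lss is highest at the far right, in dIEC 9, but Hmgcs1 and Mvd are highest in WT 8 (score 4.52). The circle of WT 8 lies low in Npc1l1.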

How the data were processed

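The authors deposited unnormalized whole-number counts for each gene in 10 libraries of sorted ileal epithelial cells. Per the labels' protocols, the library kit keeps strand and ribosomal RNA was depleted first. The submitters' processing notes name Novoalign and the mm10 build. How reads were assigned to genes, with which annotation and whether by strand, is not given in the sources used here. The 133 rows without a symbol were kept by identifier. In the values, no listed gene has a maximum over libraries below 10 counts.

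The main test was that of edgeR 4.0.16 under R 4.3.3, after filterByExpr (12477 genes kept, 89.6%) and TMM scaling. The quasi-likelihood test with robust estimation was fitted on all genes with sex and genotype, then with their interaction, then with the proliferation score, and p-values were adjusted by Benjamini-Hochberg over all tested genes. DESeq2 1.42.0 and limma 3.58.1 voom with sample weights were alternatives, beside other scalings, no filter, other covariates and libraries left out. CPM use TMM-scaled totals, and mean log2 CPM a prior count of 2. The SE was taken as the absolute log2 fold change divided by the square root of F. The fits were tested on simulated data. The genotype test recovered 1 of 61 changes of 1.5-fold, 26 of 71 of 2-fold and 59 of 68 of 4-fold. With the score it recovered 51 of 58, 66 of 70 and 72 of 72 changes of these sizes per unit of score. False calls were 5 of 91 calls for genotype and 14 of 203 for the score. The simulation drew each gene independently and changed few genes, whereas 54.5% of genes passed with the score in the real data. Its recovery with the score therefore does not carry over directly to the real data. Totals of 9174101 to 13484363 counts set the counting precision; mice also differ beyond it. Any 2 libraries of a group were further apart than counting noise allows (chi-square per degree of freedom 16.0 to 152), and each was counted as 1 sample.

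Promoter windows and sequences come from RefSeq on GRCm38.p6, matched by symbol, and gene positions and exon lengths from GENCODE M21 on GRCm38, the assembly also called mm10. The members and lists were chosen with earlier results of these data known. Values per library are given for 1 or more genes of each role (Hmgcs1, Sqle, Srebf2, Insig1, Npc1l1, Scarb1, Soat2, Abca1, Abcg5, Abcg8, Nr1h3) and for the 4 members with the smallest p in the genotype, interaction and score comparisons. Genes of other lists are named where they passed a test, or for a small p in the genotype comparison, at most 3 a list.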

Additional observations from a re-analysis of the deposited data

Results flagged for a closer look

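Dhcr7 in dIEC 5 stood at 24.5 CPM, while the other 4 dIEC libraries lay between 29.9 and 31.5 CPM, so that the gap to its nearest neighbour was 0.769 of the group's range, past Dixon's limit for 5 samples. Over the 60 groups of 5 libraries examined, chance gives about 3 such gaps, and 1 was found.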

How the results depend on the processing

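No member was called in dIEC against WT under any alternative tried, with 0 to 0 over left-out libraries, and the same held for the interaction. Over all genes 2 were called in dIEC against WT, 2 to 2 over left-out libraries, 4 with DESeq2, 5 with the proliferation score as covariate and 0 in females only, with fewer samples. With the score, 18 members were called, 13 to 18 over left-out libraries, and 8 both in males only and without the 2 libraries farthest from the median score. All genes called with the score were 6806, 4896 to 7007 over left-out libraries, 2348 in males only and 2357 without the 2 farthest libraries. Female against male gave 0 members, 0 to 0 over left-out libraries, and 3 with the score as covariate (added after seeing the data), where Npc1l1 turned from 0.030 to -0.61 (adjusted p = 0.0361), and 0 passed without WT 4, WT 8, WT 10 or dIEC 1. The cause was not tested. Over left-out libraries the median difference of synthesis genes ran from -0.19 to 0.086, that of efflux genes from -0.15 to 0.30 and the index from -0.43 to 0.031. Member by member, with the score, 317 of 360 repeats of called members kept the call and 43 lost it, and 10 of 180 repeats of the others gained one. Members that gained a call were Msmo1, Dhcr7, Hsd17b7, Srebf2, Tm7sf2 and Nr1h3, the last with limma voom or at an adjusted p under 0.1. The like counts over all genes were not made. Scarb1 and Idi1, at 1.001 to 7.30 CPM, were limited most by depth. No paired analysis was made. The WT and dIEC mice share no replicate number, and the labels do not say whether mice were paired.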

Other observations

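Genes next to the members were read from 2 further lists. Of 32 other sterol genes 31 were tested, and 0 passed in dIEC against WT (0 also at an unadjusted p under 0.05), while 8 rose (25.8%, against 26.4% of all tested genes) and 16 fell (51.6%, against 28.1%) with the proliferation score. Soat1, the esterifying enzyme of most tissues, rose by 0.68 log2 per unit (SE 0.12, adjusted p = 3.52e-04), where Soat2, the intestinal one, fell. Carriers of cholesterol did not share a direction. Of the family that takes it from the plasma membrane, Gramd1b fell by 0.89 (adjusted p = 2.60e-05) and Gramd1c by 0.25 (adjusted p = 0.0203), and Gramd1a, at 0.345 to 2.66 CPM, rose by 0.65 (adjusted p = 0.0395). In the lysosome Npc1 fell by 0.62 (adjusted p = 0.00276) and the lipase Lipa by 0.73 (adjusted p = 0.00192). Npc2, the partner of Npc1, rose by 0.34 (adjusted p = 5.57e-04). Nr1h2, the other liver X receptor, fell by 0.42 (adjusted p = 2.61e-04), and Cyp27a1, which makes a ligand of these receptors, by 0.78 (adjusted p = 2.02e-05).

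Of 15 genes of fatty acid synthesis and its regulators 0 passed in dIEC against WT, and 10 rose (66.7%, against 26.4% of all tested genes) and 1 fell (6.67%, against 28.1%) with the score. The desaturases Fads2 and Fads1 rose by 0.98 and 0.94 (adjusted p = 5.62e-07 and 1.78e-04), and fatty acid synthase, Fasn, by 0.55 (adjusted p = 1.74e-05). The gene that fell was Srebf1, which encodes their activator, by 0.48 (adjusted p = 2.10e-04). In the genotype comparison the smallest p of this list was that of Me1, malic enzyme (-1.15, SE 0.54, adjusted p = 0.9999).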
